A study of Homo sapiens with 6 samples.

Results

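Across 6 RNA libraries of K562, a human chronic myeloid leukaemia line, 8 genes for chromatin regulators that are recurrently mutated in myeloid neoplasms were followed at the level of their splice junctions: EZH2, KDM6A, BCOR, ASXL1, DNMT3A, TET2, STAG2 and PHF6. A junction belonged to a gene when its intron lay inside that gene's window and on its strand in the hg19 build, and 520 of the 780566 junctions in the tables did. All 8 genes matched a RefSeq symbol and gene ID. The tables mark 211 of the 520 junctions as annotated, of which 205 had at least 1 unique read, and 309 as unannotated, of which 294 had one. The controls, called WT here, were 3 libraries of cells with a knock-in of wild-type U2AF1, and the other 3 libraries came from cells with the U2AF1 substitution S34F, for which the labels do not say how it was introduced or on how many alleles. The U2AF1 protein reads the AG at the end of an intron as part of a splicing factor, and S34F puts phenylalanine in place of serine. The labels do not say whether the libraries of a group came from separate clones or cultures, so p-values measure only the spread between these samples, which may be technical.

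These regulators act at several layers of chromatin. EZH2 is the enzyme of Polycomb repressive complex 2 and adds a repressive methyl mark to histone H3, which KDM6A removes. BCOR is a subunit of a variant Polycomb repressive complex that ubiquitinates histone H2A, and ASXL1 is the partner of the deubiquitinase BAP1. DNMT3A methylates DNA and TET2 oxidises the methyl group. STAG2 is a subunit of cohesin, the ring that holds chromatin loops and sister chromatids, and PHF6 is a zinc finger protein of the nucleolus and chromatin. Loss of these proteins is recurrent in myeloid disease, and U2AF1 mutations occur in the same diseases.

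The libraries held between 18074706 (S34F replicate 2) and 39279169 (S34F replicate 3) unique junction reads. All 7 erythroid-type marker genes of K562 were measured in each library, and their summed level ran from 1773 to 2885 reads per 1000000 unique junction reads (RPM) in WT and from 2394 to 4171 in S34F. HBZ, an embryonic globin, was at 120, 243 and 161 RPM in WT and 544, 398 and 472 in S34F, so every S34F library was above every WT library. The 6 markers of other cell types summed to between 43.3 and 243 in WT and between 86.5 and 169 in S34F. The T cell marker CD3E stayed at or below 2.28 RPM, was at 0 in S34F replicate 1 and was lower in every S34F library than in every WT library, and the B cell marker CD79A stayed at or below 0.197. WT replicate 1 stood apart: EPCAM had no junction read there, against 216 and 156 RPM in the other WT libraries and 53.7 to 118 in S34F. Whether these differences have a part in the results below was not tested. Values without WT replicate 1 are given for some results, not for all.

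EZH2 had the highest level per junction in WT and TET2 the lowest. The scale was the median unique reads, in RPM, over a gene's annotated junctions with at least 1 unique read in every library. It compares genes without regard to how many introns they have. The junctions kept ran from 25 of 34 in DNMT3A to all 12 in PHF6. On this scale the WT means were 10.2 ± 0.410 (SD, n = 3) for EZH2, 6.73 ± 1.27 for STAG2, 5.26 ± 0.448 for BCOR and 3.94 ± 0.609 for PHF6. They were 3.25 ± 0.00815 for ASXL1, 1.31 ± 0.494 for DNMT3A, 1.16 ± 0.134 for KDM6A and 0.551 ± 0.105 for TET2. Among neighbours in that order the WT libraries overlapped for STAG2 and BCOR, for PHF6 and ASXL1 and for DNMT3A and KDM6A, and for no other pair. In S34F the order at the top was STAG2 at 6.87 ± 1.11, EZH2 at 6.48 ± 1.38 and BCOR at 6.29 ± 0.664, which overlapped.

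**Figure D1:**
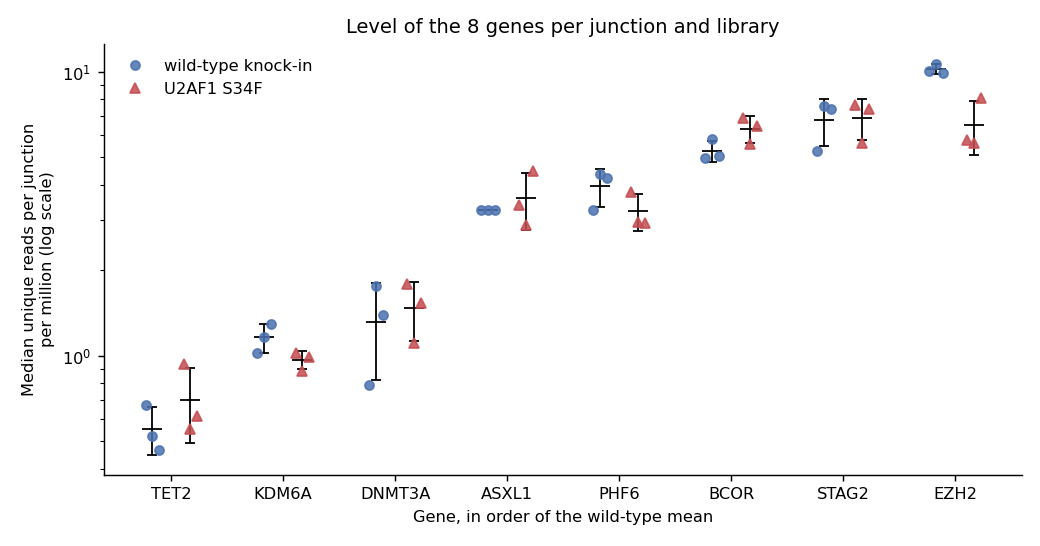
Median unique reads (RPM, log scale) over the annotated junctions of each gene that had a unique read in every library. Points are the 3 WT (circles) and 3 S34F (triangles) libraries, with the mean and SD as bars. EZH2 is at 10.2 in WT and 6.48 in S34F without overlap, and TET2 has the lowest mean in both groups.

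EZH2 and KDM6A, the writer and the eraser of the same histone mark, both had lower summed levels in S34F without overlap between the groups. Summed over annotated junctions, EZH2 had 214, 236 and 208 RPM in WT and 132, 125 and 186 in S34F. S34F replicate 3 was the nearest to WT and still below all of it. The means were 219 ± 14.6 and 148 ± 33.3 (SD, n = 3), and the log2 difference was -0.59. The two-sided p of an exact permutation over libraries was 0.1, the smallest that 3 against 3 can give. KDM6A had 33.3, 36.9 and 36.6 in WT and 30.8, 26.6 and 31.1 in S34F, a log2 difference of -0.27 with the same exact p of 0.1. On the scale of the median per junction EZH2 was again apart, but KDM6A overlapped, at 1.02, 1.16 and 1.29 RPM in WT and 1.02, 0.885 and 0.993 in S34F. Of the 114277 single annotated junctions tested in the series, 17.6% had groups that did not overlap in read level. Summed gene levels are a different measure, and their share without overlap over all genes was not computed. In these bulk samples, fewer cells with a transcript and less of it per cell cannot be told apart.

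The other 6 genes overlapped between the groups. PHF6 was at 33.3, 44.4 and 45.3 RPM in WT and 37.5, 30.7 and 32.1 in S34F (log2 difference -0.29, exact permutation p 0.2). BCOR was at 78.0, 91.6 and 86.7 in WT and 107, 89.2 and 105 in S34F (log2 difference 0.23, exact permutation p 0.2). ASXL1 was at 53.9, 51.3 and 53.2 in WT and 56.9, 52.0 and 68.4 in S34F (log2 difference 0.15, exact permutation p 0.3). In each of these genes at least 1 S34F library lay within the range of WT. TET2 was at 7.55, 6.86 and 5.57 in WT and 9.50, 6.36 and 8.20 in S34F (log2 difference 0.26, exact permutation p 0.3). Leaving out 1 library moved several of these differences: ASXL1 was at 0.04 without S34F replicate 3 and 0.24 without S34F replicate 2, and TET2 at 0.14 without WT replicate 3, 0.13 without S34F replicate 1 and 0.42 without S34F replicate 2. DNMT3A and STAG2 were lowest in WT replicate 1, at 19.7 and 202 against 37.3, 29.3 and 275, 276 in the other WT libraries. Their log2 differences were 0.20 and 0.08, and without WT replicate 1 they turned to -0.052 and -0.067. PHF6 was also lowest in WT replicate 1 among the WT libraries. Without that library its log2 difference was -0.43 and its groups did not overlap. Over the 8 genes, 3 means were lower and 5 higher in S34F, with a median log2 difference of 0.12. Of their 163 single junctions tested, 84 were lower and 79 higher, with a median log2 fold of -0.0028 (edgeR). The median over all annotated junctions tested was 0.02, from single junctions scaled to library totals, which is not the measure used for the gene sums.

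No annotated junction of the 8 genes passed the test of read level (edgeR quasi-likelihood test, adjusted p under 0.05 over all junctions): 0 of 163, against 0.198% of the 114277 tested. At an unadjusted p under 0.05 there were 31 of 163, against 13.6% in the series. DESeq2 called 1 of the 163, in EZH2, against 1311 of 114277 in the series. The EZH2 junctions nevertheless lay to one side: 20 of 24 were lower in S34F and their median log2 fold was -0.61. The junction with the lowest adjusted p, chr7:148526941-148529725, had 218, 262 and 195 reads in WT and 120, 84 and 246 in S34F (log2 fold -0.88, SE 0.17, edgeR adjusted p 0.0623). S34F replicate 3 is the deepest library, and scaled to library totals each S34F library was below each WT library. Of the 4 EZH2 junctions that were higher, those into and out of an 82 nt exon had log2 folds of 1.05 (SE 0.33) and 0.76 (SE 0.34). Groups did not overlap in 14 EZH2 junctions that were lower and 2 that were higher, against 8.8% and 8.83% of all junctions in the series. In KDM6A, 23 of 29 junctions were lower (median -0.30), in PHF6 11 of 11 (median -0.34) and in BCOR 2 of 16 (median 0.24). Junctions of one gene share transcripts and are not independent.

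**Figure D2:**
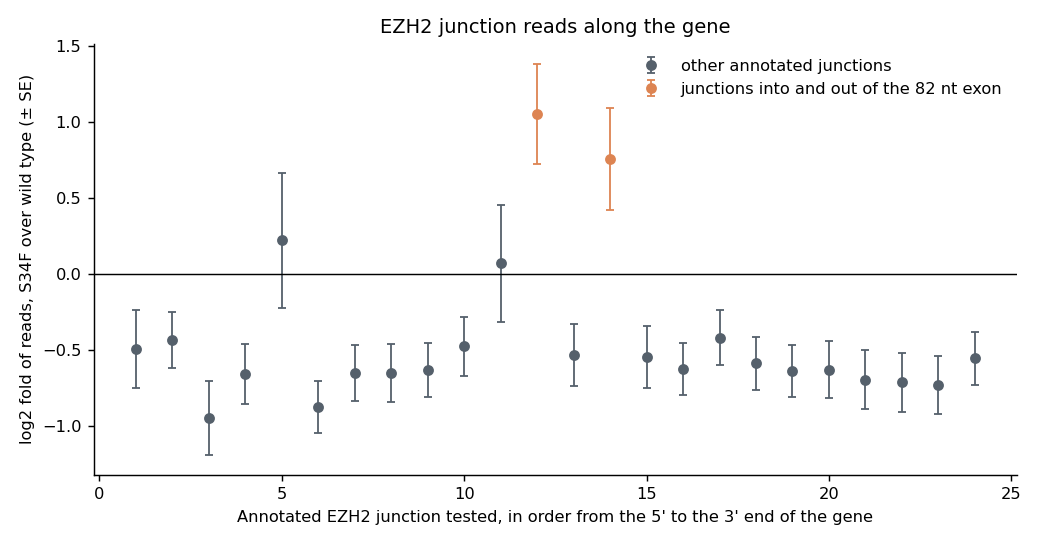
Log2 fold of unique reads, S34F over wild type, with its SE (edgeR), for the 24 EZH2 junctions tested, in order from the 5' to the 3' end of the gene. In all, 20 junctions lie below 0, and the junctions of the 82 nt exon (orange) lie at 1.05 and 0.76.

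Splicing was compared as shares: which acceptor a donor joined, which donor an acceptor joined, whether an exon was included, and which of 2 neighbouring acceptors was used. An event was called at an adjusted p under 0.05 over all events of its class (edgeR quasi-likelihood test) with a difference of at least 10 percentage points between group means. The calls in the 8 genes came from 1 exon of EZH2 and 1 pair of acceptors of BCOR. In acceptor usage 4 of 54 events were called, against 2.11% of 51522 in the series, and these 4 came from 2 donors. At an unadjusted p under 0.05 there were 15 acceptor events, against 19.9% in the series. In exon inclusion 1 of 25 was called, against 2.74% of 19272, and 8 were at an unadjusted p under 0.05, against 23.9%. In donor usage 0 of 65 were called, against 0.934% of 48269, with 18 at an unadjusted p under 0.05 (17.3% in the series) and 0 by DESeq2 and by limma. Of neighbouring acceptors 0 of 2 were called, against 2.85% of 5684, with 0 at an unadjusted p under 0.05 and 0 by DESeq2 and by limma. DESeq2 and limma called none of the 5 events either. Over the series DESeq2 called 150 of 51522 acceptor events, 183 of 48269 donor events and 265 of 19272 exons. Limma called 0 in each of these classes, so its 0 in them says nothing about a gene. Of 5684 pairs of neighbouring acceptors DESeq2 called 41 and limma 10.

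The number of events that could be tested was 64 in EZH2, 30 in ASXL1, 24 in STAG2, 11 in BCOR, 8 in PHF6, 7 in DNMT3A, 2 in KDM6A and 0 in TET2. Groups did not overlap in 20 of the 54 acceptor events and 8 of the 25 exons, against 25.2% and 29.2% in the series. For donor events it was 25 of 65, against 22.4%, and for neighbouring acceptors 0 of 2, against 21.1%.

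**Figure D3:**
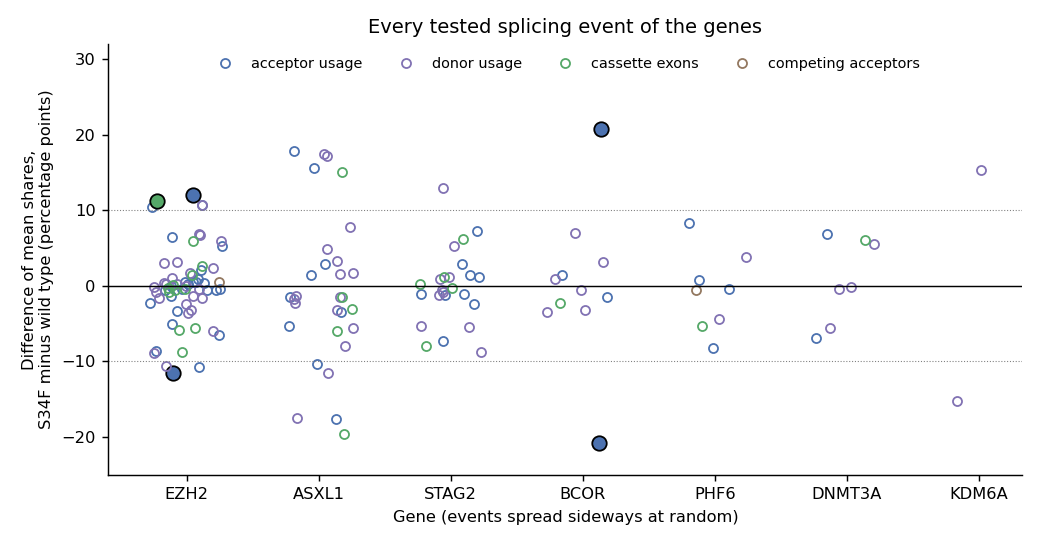
Difference of mean shares, S34F minus wild type in percentage points, for all 146 tested events of the genes by class. Filled points are the 5 called events (EZH2 and BCOR), open points did not pass, and dotted lines mark 10 points.

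In EZH2, an 82 nt exon at chr7:148516070-148516151 (hg19, minus strand) was included more often in S34F. Its junctions are annotated, and its length is not a multiple of 3. Inclusion was 8.31%, 8.81% and 4.48% in WT and 23.7%, 18.8% and 12.7% in S34F, from 154 to 503 reads per library. Every S34F library was above every WT library. The means were 7.20% ± 2.37 and 18.4% ± 5.49 (SD, n = 3), a log2 odds difference of 1.45 (SE 0.42, edgeR adjusted p 0.0484). Counted from the donor upstream, the share that joined this exon was 6.83%, 8.23% and 3.98% in WT and 22.8%, 19.9% and 12.5% in S34F (log2 odds 1.63, SE 0.42, edgeR adjusted p 0.0272). The skipping junction took a mean share of 92.8% in WT and 81.3% in S34F (log2 odds -1.47, SE 0.40, edgeR adjusted p 0.0356). These 3 calls are readings of 1 exon and share reads.

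The call on the exon was near its threshold. The adjusted p of its inclusion was 0.0919 with DESeq2, 0.139 with limma and 0.0690 with multi-mapped reads added. Without 1 library it was 0.0252 (WT replicate 1), 0.0798 (WT replicate 2), 0.105 (WT replicate 3), 0.167 (S34F replicate 1), 0.141 (S34F replicate 2) and 0.112 (S34F replicate 3), with the log2 odds between 1.19 and 1.79.

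Other EZH2 exons did not pass the rule. A 170 nt exon, chr7:148514314-148514483, was included in 96.6%, 96.4% and 96.0% of reads in WT and in 90.8%, 90.0% and 91.3% in S34F (edgeR adjusted p 0.0565). The libraries of each group lie close together and the groups are apart. The junction that skips it is unannotated and was the most used unannotated junction of the gene, with 8, 10 and 8 reads in WT and 14, 11 and 32 in S34F. A 117 nt exon near the 5' end, chr7:148529726-148529842, was included in 89.2% ± 5.13 in WT and 80.5% ± 5.45 in S34F against its annotated skip (edgeR adjusted p 0.178), with overlap. Against a nearby unannotated skip it was at 93.7% ± 2.65 and 87.9% ± 2.56 without overlap (edgeR adjusted p 0.195). A longer unannotated skip of the same exon, chr7:148526941-148581255, went the other way. It had 5, 3 and 4 reads in WT and 0, 0 and 3 in S34F. A 68 nt form of the 82 nt exon, tested as an exon too, shares its outgoing junction with the longer form. The unannotated junction specific to it, chr7:148516138-148516687, had 2, 1 and 4 reads in WT and 1, 0 and 3 in S34F, so its inclusion value largely repeats that of the 82 nt exon. An unannotated acceptor at the junction chr7:148513047-148513775 took 1.49%, 2.94% and 3.02% in WT and 0%, 0.752% and 0% in S34F. Its adjusted p of 0.0268 (edgeR) is under the threshold, but the difference is below 10 points. The other EZH2 exons tested, of 85, 95, 126 and 179 nt, were included at a mean of at least 97.4% in each group.

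In BCOR, the acceptor used at the end of 1 intron moved. Joined to the donor of the introns chrX:39923104-39923588 and chrX:39923206-39923588 (hg19, minus strand), both annotated, the acceptors lie 102 nt apart, a multiple of 3, and the upstream one adds that length to the exon. The upstream acceptor had 74, 85 and 51 reads in WT and 34, 34 and 68 in S34F, and the downstream one 91, 111 and 75 in WT and 148, 95 and 256 in S34F. The upstream share was 44.3%, 43.1% and 40.5% in WT and 18.5%, 26.4% and 20.9% in S34F, with the groups well apart. Its mean fell from 42.6% ± 1.97 to 21.9% ± 4.04 (SD, n = 3; log2 odds -1.43, SE 0.36, edgeR adjusted p 0.0225). The downstream share was 56.8% ± 2.55 in WT and 77.5% ± 3.50 in S34F (log2 odds 1.42, SE 0.36, edgeR adjusted p 0.0233), which is the same reads seen from the other side.

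For the upstream acceptor the adjusted p was 0.176 with DESeq2 and 0.156 with limma. It was 0.0139 without WT replicate 1, 0.0677 without WT replicate 2, 0.0310 without WT replicate 3, 0.0973 without S34F replicate 1, 0.0571 without S34F replicate 2 and 0.135 without S34F replicate 3, all by edgeR. The log2 odds stayed between -1.60 and -1.30.

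**Figure D4:**
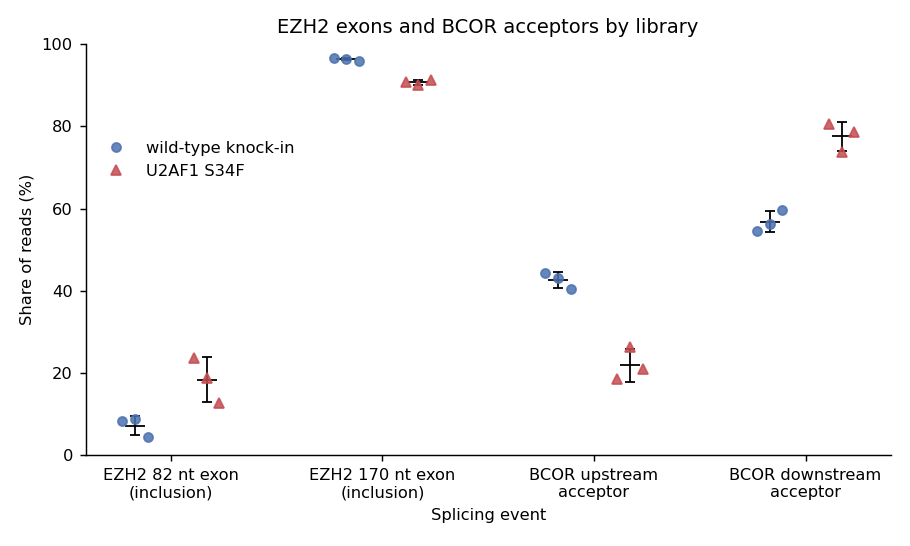
Share of reads (%) in each library for inclusion of the 82 nt and 170 nt EZH2 exons and for the BCOR acceptors 102 nt apart, with mean and SD as bars (circles WT, triangles S34F). In all 4 events the groups do not overlap, and the BCOR upstream share is 42.6% in WT and 21.9% in S34F.

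Elsewhere in BCOR the groups were closer. A 54 nt exon, chrX:39930890-39930943, was included in 87.4%, 71.9% and 69.6% of reads in WT and in 74.9%, 74.5% and 72.6% in S34F (edgeR adjusted p 0.791). WT replicate 1 was the highest there, and without it the log2 odds turned to 0.22. At the 5' end, the acceptor ending the long first introns was joined from the donor of chrX:39937223-39956467 in 88.7%, 88.7% and 91.3% of reads in WT and in 96.3%, 97.7% and 95.6% in S34F (edgeR adjusted p 0.119). These groups are apart by under 10 points.

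In ASXL1 no event was called, although its exons differed by up to 19.6 points between the group means. A 97 nt exon, chr20:30959581-30959677 (hg19, plus strand), was included in 38.5%, 21.9% and 45.2% in WT and in 17.3%, 12.7% and 16.5% in S34F against the shorter of its skipping junctions. All WT libraries were above all S34F libraries, with 31 to 115 reads per library, and the edgeR adjusted p was 0.0607. It was 0.0487 with multi-mapped reads added. Against the longer skip its inclusion was 15.5% ± 4.92 and 9.51% ± 2.20 (edgeR adjusted p 0.292).

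A 153 nt ASXL1 exon, chr20:31017704-31017856, was included in 91.1%, 62.3% and 70.5% in WT and in 95.9%, 84.6% and 88.6% in S34F. WT replicate 1 lay within the S34F libraries, and the edgeR adjusted p was 0.126. Without WT replicate 1 it was 0.00552, with a difference of 23.3 points. The junction that skips this exon is unannotated, the most used unannotated junction of ASXL1, with 7, 26 and 18 reads in WT and 3, 6 and 17 in S34F. Inclusion of a 106 nt exon was 99.3% ± 0.578 and 97.9% ± 1.87, and that of a 3 nt segment 97.2% ± 2.46 and 94.2% ± 0.673 (edgeR adjusted p 0.319 and 0.331).

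STAG2, the cohesin subunit, had 24 events tested and none at an unadjusted p under 0.05. EdgeR and DESeq2 called 0 of them. Limma also called 0, as it did for all acceptor, donor and exon events of the series. A 111 nt exon, chrX:123224704-123224814 (hg19, plus strand), was included in 14.5%, 15.8% and 9.57% in WT and in 18.8%, 20.9% and 18.9% in S34F. Its means were 13.3% ± 3.28 and 19.5% ± 1.20 (edgeR adjusted p 0.266), from 225 to 673 reads per library, and the groups did not overlap. The largest STAG2 difference was at its 5' end: the junction chrX:123095707-123156380 supplied 47.9%, 43.4% and 40.2% of the reads into its acceptor in WT and 57.1%, 63.1% and 50.3% in S34F (edgeR adjusted p 0.363). A 65 nt exon inside that intron was at 31.6% ± 5.95 in WT and 23.6% ± 3.28 in S34F (edgeR adjusted p 0.408). Exons of 28 nt and 123 nt were included at means between 2.76% and 7.67%, and one of 102 nt at 98.4% and 99.6%, with overlap in all of them.

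PHF6 had 8 events, 0 of them called by edgeR, by DESeq2 or by limma and 0 at an unadjusted p under 0.05. A 102 nt exon, chrX:133512035-133512136, was included in 98.6%, 88.8% and 96.8% in WT and in 85.9%, 88.9% and 93.5% in S34F (edgeR adjusted p 0.415). The groups overlapped. A pair of acceptors 3 nt apart had shares within 4 points over all libraries: the first took 14.8%, 16.8% and 18.4% in WT and 16.8%, 14.8% and 17.1% in S34F (log2 odds -0.03, SE 0.41, edgeR adjusted p 0.982).

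KDM6A had 2 events tested, which are the same reads seen from each side. They concern a 102 nt exon, chrX:44921892-44921993 (hg19, plus strand), whose annotated skipping junction had 9, 11 and 7 reads in WT and 14, 7 and 26 in S34F. The junction out of the exon had 26, 23 and 20 reads in WT and 21, 14 and 20 in S34F. The skip supplied 25.7%, 32.4% and 25.9% of the reads into the next exon in WT and 40.0%, 33.3% and 56.5% in S34F. Every S34F library was above every WT library, but S34F replicate 2 by under 1 point and with 21 reads, and the edgeR adjusted p was 0.331.

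DNMT3A and TET2 are the enzymes of DNA methylation and its removal, and both had few reads. In DNMT3A a 70 nt exon, chr2:25459805-25459874 (hg19, minus strand), was included in 93.3%, 94.7% and 90.2% in WT and in 98.6%, 100% and 97.9% in S34F (edgeR adjusted p 0.119), from 30 to 96 reads per library, with no overlap. The most used unannotated DNMT3A junction, chr2:25470208-25470459, had 1, 0 and 0 reads in WT and 9, 1 and 9 in S34F. Its partner across a 40 nt segment, chr2:25470028-25470167, had 1, 1 and 0 in WT and 4, 3 and 7 in S34F, and was chosen after its values were seen. The annotated junction over the same intron had 19, 35 and 19 reads in WT and 28, 20 and 41 in S34F.

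TET2 had 1131 reads on annotated junctions over the 6 libraries, and no TET2 event reached 20 reads in every library, so no difference in its splicing was detectable at this depth. Its annotated junctions are given only as levels: 3 of 11 were lower and 8 higher in S34F (median log2 fold 0.20), none called. The most used unannotated TET2 junction, chr4:106164085-106180775, skips an annotated exon and had 2, 0 and 0 reads in WT and 4, 3 and 2 in S34F. The junctions into that exon had 12, 9 and 11 reads in WT and 12, 10 and 22 in S34F.

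**Figure D5:**
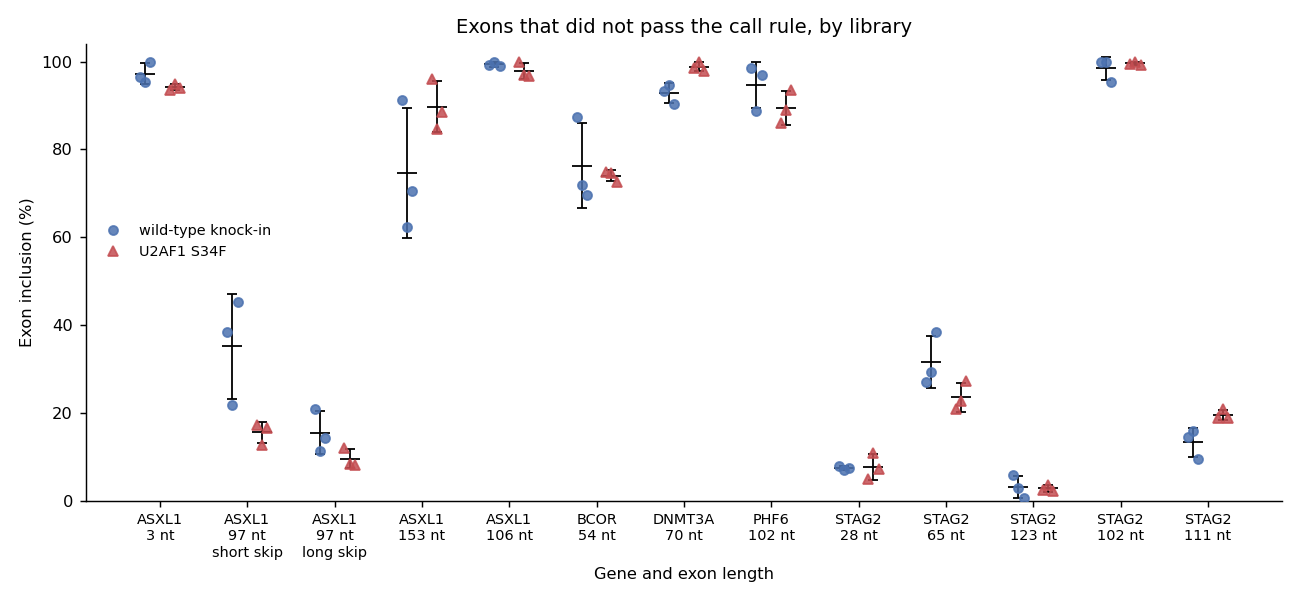
Inclusion (%) of 12 exons of ASXL1, BCOR, DNMT3A, PHF6 and STAG2 that did not pass the call rule, by library (circles WT, triangles S34F), with mean and SD as bars; the 97 nt ASXL1 exon is shown against both of its skipping junctions. The 97 nt ASXL1 exon against its short skip is at 35.2% in WT and 15.5% in S34F, and WT replicate 1 is the highest WT point of the 153 nt ASXL1 and 54 nt BCOR exons.

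The share of a gene's reads on unannotated junctions was low in all 8 genes. In ASXL1 it was 2.70%, 2.96% and 3.28% in WT and 1.62%, 1.98% and 2.50% in S34F, without overlap (2.98% ± 0.292 and 2.04% ± 0.444, exact permutation p 0.1, the smallest possible). These were 38, 39 and 35 reads in WT and 22, 19 and 69 in S34F. Of them, 7, 26 and 18 in WT and 3, 6 and 17 in S34F were on the exon skip already given for ASXL1. The ASXL1 difference is therefore not separate from that event, and the share without this junction was not computed. The highest mean share was in TET2, at 4.03% ± 1.21 and 4.66% ± 1.60, from 5 to 12 reads per library. EZH2 was at 1.56% ± 0.254 and 1.80% ± 0.112, DNMT3A at 1.78% ± 0.531 and 2.42% ± 0.423, and BCOR at 1.08% ± 0.336 and 0.589% ± 0.173. KDM6A was at 1.10% ± 0.281 and 1.16% ± 0.178, STAG2 at 0.263% ± 0.153 and 0.261% ± 0.0186, and PHF6 at 0.261% ± 0.148 and 0.192% ± 0.174. The groups overlapped in these 7 genes. How often unannotated shares do not overlap over all genes was not computed.

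A list of 21 other subunits, paralogs and enzymes of the same processes gave the setting. Of these, 13 had a lower and 8 a higher mean level in S34F (median log2 difference -0.11). EED, RNF2, KMT2A and SMC1A were lower and STAG1 and TET3 higher without overlap, 6 of 21. The share of all genes whose summed levels do not overlap was not computed, so nothing is read from this count. EED, which binds EZH2 in the same complex, was at 47.0, 57.8 and 50.4 RPM in WT and 34.8, 32.9 and 42.7 in S34F. Its level was the most like that of EZH2 among 28 genes over the 6 libraries (Pearson r 0.98 of log2 levels), and SUZ12, the third core subunit, was at 85.1, 117 and 103 RPM in WT and 105, 91.7 and 113 in S34F, with overlap. KMT2A was the most like KDM6A (r 0.96) and PHF6 (r 0.95). ASXL2 was the most like DNMT3A (r 0.93) and STAG2 (r 0.91). For the others it was BAP1 with ASXL1, DNMT3A with BCOR and TET3 with TET2. These correlations describe 6 libraries that share group and depth, and carry no test.

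Of the splicing events of the list, 2 of 159 acceptor events (2.11% called in the series), 1 of 62 exons (2.74%) and 1 of 17 pairs of neighbouring acceptors (2.85%) were called, and the acceptor and exon shares are no higher than in the series. They were in DNMT1, the maintenance DNA methyltransferase, and DNMT3B, a paralog of DNMT3A, and the DNMT1 calls are readings of 1 pair of acceptors. A DNMT1 acceptor took 93.8%, 95.4% and 97.8% of reads in WT and 82.6%, 77.3% and 77.5% in S34F against one 40 nt downstream (log2 odds -2.47, SE 0.45, edgeR adjusted p 8.9e-05). A DNMT3B exon of 126 nt, chr20:31374308-31374433, was included in 76.9%, 79.9% and 83.0% in WT and in 63.6%, 60.2% and 64.7% in S34F (log2 odds -1.23, SE 0.34, edgeR adjusted p 0.0416). All S34F libraries were below all WT libraries in both. With DESeq2 or limma 0 exons of the list were called. The same held without any 1 library other than WT replicate 1, so the DNMT3B call was near its threshold. In donor usage 0 of 131 events of the list were called, against 0.934% in the series.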

How the data were processed

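Poly(A)-selected RNA of 6 K562 libraries was measured as splice junctions. The deposited tables, aligned with STAR to hg19 per the submitters' processing notes, give raw counts of unique and multi-mapped reads for each junction; versions and the annotation behind the annotated mark are not given in the sources used here. The deposited largest overhang, another per-junction value, served only as a filter. The authors' other steps are not given in the sources used here.

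Unique counts were used. Tests ran over the whole series in edgeR 4.0.16 (quasi-likelihood, Benjamini-Hochberg per class); DESeq2 1.42.0 and limma 3.58.1 were alternatives. Junction levels needed 10 reads in 3 libraries, with TMM scaling. Events needed 20 reads in every library and 10 on each side; exons were at most 500 nt, neighbouring acceptors at most 100 nt apart. Exon inclusion set the rounded mean of both inclusion junctions against the skip. Gene levels were annotated reads per 1000000 unique junction reads (RPM), compared by two-sided exact permutation. Replicates of a group differed by more than counting noise (chi-square per degree of freedom 4.69 to 15.2), so none was the same library sequenced again. This cannot tell separate cultures from separate preparations of 1 culture. Scripts were tested on simulated data. There the test of junction level called 18.0% of changes of log2 fold 1 and 71.0% of those of log2 fold 2. At log2 odds 2, calls were made for 54.4% of changed acceptor events, 49.5% of donor events and 68.5% of exons. A junction or event that was not called is therefore not shown to be unchanged.

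Named were all 8 genes, called events, exons tested, each gene's largest difference and its most read unannotated junction. Members, lists and rules were chosen with earlier results of these data known. Gene windows came with the member definition; those of the list and marker genes were set from known hg19 positions, without an annotation. Splice-site sequence was not used here.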

Additional observations from a re-analysis of the deposited data

Results flagged for a closer look

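Multi-mapped reads were outside the comparisons above. On TET2 junctions there were 2, 3 and 3 such reads in WT and 5, 3 and 13 in S34F, a mean of 0.110 and 0.219 RPM (reads per 1000000, unique and multi-mapped), and each S34F library was above each WT library. Among the 8 genes TET2 was the only one whose multi-mapped reads did not overlap between the groups. The nearest libraries, WT replicate 3 and S34F replicate 2, had 3 reads each, at 0.145 and 0.153 RPM, and differ only through their totals. How often such reads do not overlap over all genes was not computed. The TET2 difference was not tested, and it rests on few reads.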

How the results depend on the processing

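Acceptor calls in the 8 genes numbered 4 of 54, and 2 with a minimum of 20 points (473 of 51522 in the series). They numbered 0 with DESeq2 (150 in the series) and 0 with limma (0 in the series). Without 1 library they numbered 0 to 7. The 7, of which 3 in ASXL1, were of 50 events without WT replicate 1, against 1932 of 46510 in the series. Exon calls numbered 1 of 25, and 0 with 20 points, DESeq2 and limma (221, 265 and 0 of 19272 in the series). Without 1 library exon calls numbered 0 to 2, with 2 of 24 without WT replicate 1 against 1084 of 17924 in the series. Donor calls numbered 0, and 0 to 4 without 1 library (4 of 61 without WT replicate 1, against 1210 of 43726 in the series). Junction level calls numbered 0, and 1 of 163 with DESeq2, against 1311 of 114277 in the series. Without a low-count filter they numbered 8 of 205, against 5138 of 218590. Equal replicate numbers did not pair the samples (correlations -0.17, -0.15 and -0.022). With the number as a replicate block the counts were 3 acceptors and 0 exons (EZH2 exon adjusted p 0.0709, edgeR). In the series they were then 922 of 51522 acceptor events and 193 of 19272 exons.

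Over 22 named events, 226 of 268 alternatives kept direction and side of the threshold, 35 were weaker, 2 stronger and 5 reversed. Most of the 22 events were not called, and such an event keeps its side by staying uncalled. Only the 5 called events could lose a call, so the count of 226 does not measure how stable the calls were. Reversed were the log2 odds of the STAG2 28 nt exon (0.00026 with the replicate block, -0.31 to 0.19 without 1 library), the STAG2 123 nt exon (0.20 with limma, -0.66 to 0.52) and the BCOR 54 nt exon (-0.47 to 0.22). Gene levels ran from -0.052 to 0.41 in DNMT3A and from -0.067 to 0.21 in STAG2 without 1 library. Unannotated shares reversed in KDM6A (-0.065 points with at least 3 reads per junction) and STAG2 (0.00975 points with multi-mapped reads). Without 1 library they ran from -0.299 to 1.24 points in TET2, -0.0747 to 0.206 in KDM6A, -0.0816 to 0.0707 in STAG2 and -0.154 to 0.0274 in PHF6. The cause was not tested. Depth limits TET2, KDM6A and DNMT3A most.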
